A study of Sus scrofa with 3 samples.

Results

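The interleukin-1 (IL-1) family genes IL1A, IL1B, IL18, IL33, IL1R1, IL1RAP and IL1R2 and the acute-phase gene SAA3 were followed across 3 pig cell populations. These 8 genes were taken by symbol from 26466 gene symbols. All 8 had a row in every library, with IL1B at 0 counts in BMAC. They were chosen with results of these libraries in view, so their levels below are a description and no test was made on them.

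The populations, all from Sus scrofa, were mononuclear cells of peripheral blood (PBMC), mesenchymal stem cells derived from bone marrow (BM-MSC), and a population that the labels call bone marrow attached cell (BMAC). Each was represented by 1 library made with the Lexogen QuantSeq kit, which reads a fragment near the 3' end of polyadenylated transcripts. The series sets the 3 populations against each other for differentially expressed genes. The labels name no strain, age, sex, treatment, culture time or donor animal, and give no isolation method.

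As background, IL-1 alpha (IL1A) and IL-1 beta (IL1B) are ligands of the receptor IL1R1, which signals together with the accessory protein IL1RAP through MYD88 and IRAK kinases to NF-kB. IL1R2 binds the same ligands but cannot signal and acts as a decoy. IL-1 beta and IL-18 are made as precursors that the inflammasome protease caspase-1 cuts, whereas the precursor of IL-1 alpha is active without that cut and IL-33 is a nuclear alarmin released by damaged cells. SAA3 encodes a serum amyloid A protein that cells outside the liver can make in inflammation, and in stromal cells IL-1 is a known inducer of it and of IL6, chemokines and prostaglandin enzymes.

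The PBMC library held 15445903 counts, the BM-MSC library 17069344 and the BMAC library 15122997. Levels are counts per 1000000 counts of the library (CPM), with the raw count and a 95% exact Poisson interval, which covers counting error only. Ratios are log2((CPM + 1)/(CPM + 1)), and folds are ratios of CPM without the pseudocount, with a 95% exact conditional interval in parentheses. With 1 library per population no difference has a replicate check and no p-value is given. A gene was measured in a comparison if its higher library held at least 10 CPM, and passed the size rule if its log2 ratio was also at least 2 in size. TMM or median-of-ratios scaling moved the median log2 ratio of all measured genes in BM-MSC against PBMC from -0.16 to 0.23 or 0.26, and in BMAC against PBMC from -0.12 to 0.21 or 0.22. No member's ratio had another sign under either scaling, and the same members passed the rule.

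Marker genes set the marrow populations apart from blood, in the direction of their labels. Summed over 10 fibroblast and mesenchymal markers the level was 56.7 CPM in PBMC against 14227 in BM-MSC and 12498 in BMAC. The largest rows were COL1A1 and COL1A2, at 6893 and 4804 CPM in BM-MSC and 3219 and 4120 in BMAC. THY1, another of these markers, stood at 48.7 CPM in PBMC against 364 in BM-MSC and 69.8 in BMAC, and BMAC was short of the rule against PBMC. Summed over 5 leukocyte markers it was 5198 CPM in PBMC against 14.9 in BM-MSC and 5.29 in BMAC. In bulk samples fewer cells of a type and less RNA per cell cannot be told apart.

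IL1A and IL1B, the ligands of IL1R1, lay on opposite sides of the comparison. IL1A held 30 counts in PBMC (1.94 CPM, 1.31 to 2.77), 37 in BM-MSC (2.17 CPM, 1.53 to 2.99) and 3548 in BMAC (234.6 CPM, 227.0 to 242.5). Only BMAC was high, and the intervals of PBMC and BM-MSC overlapped. The level in BMAC was 121-fold (84.5 to 179) that in PBMC and 108-fold (78.4 to 154) that in BM-MSC. IL1B held 216 counts in PBMC (13.98 CPM, 12.2 to 16.0), 1 in BM-MSC (0.0586 CPM, 0.00148 to 0.326) and 0 in BMAC, where 3 counts would be 0.198 CPM. Blood cells held all but 1 of its counts, 239-fold (42.4 to 9471) above BM-MSC and at least 70.5-fold above BMAC with the 0 taken as 3 counts.

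The count ratio of IL1A to IL1B within a library does not depend on scaling. It was 0.139 (0.0915 to 0.204) in PBMC, 37 (6.24 to 1500.4) in BM-MSC and at least 1183 in BMAC. Each ratio also depends on how well each 3' end is captured, so its change between libraries, not its size, is informative. IL1A and IL1B are next to each other among protein-coding genes in RefSeq's Sscrofa11.1 annotation. IL1B2, a second pig gene for IL-1 beta, held 2, 0 and 0 counts in PBMC, BM-MSC and BMAC. Reads of IL1B and IL1B2 may have been split or dropped, since it is not stated how reads with several matches were handled.

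The monocyte and macrophage markers, genes of cells known to make IL-1 beta, had the same order as IL1B between blood and marrow cells. Their summed level over 10 genes was 723 CPM in PBMC against 11.1 in BM-MSC and 20.0 in BMAC. CSF1R and MPEG1 were at 0 in BM-MSC, and LYZ, FCGR3A and MPEG1 were at 0 in BMAC. CD14, which fibroblasts can also express, was the exception at 12.9, 3.63 and 17.3 CPM in PBMC, BM-MSC and BMAC. The T cell, B cell, NK cell and neutrophil marker lists also had the order of blood above marrow, so it is not particular to monocytes. They summed to 1836, 2078, 145 and 63.4 CPM in PBMC. In BM-MSC the sums were 8.85, 5.04, 1.58 and 0.937 CPM, and in BMAC 4.76, 4.69, 0.595 and 1.39 CPM. What part monocytes or other blood cells had in the IL1B values was not tested.

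**Figure D1:**
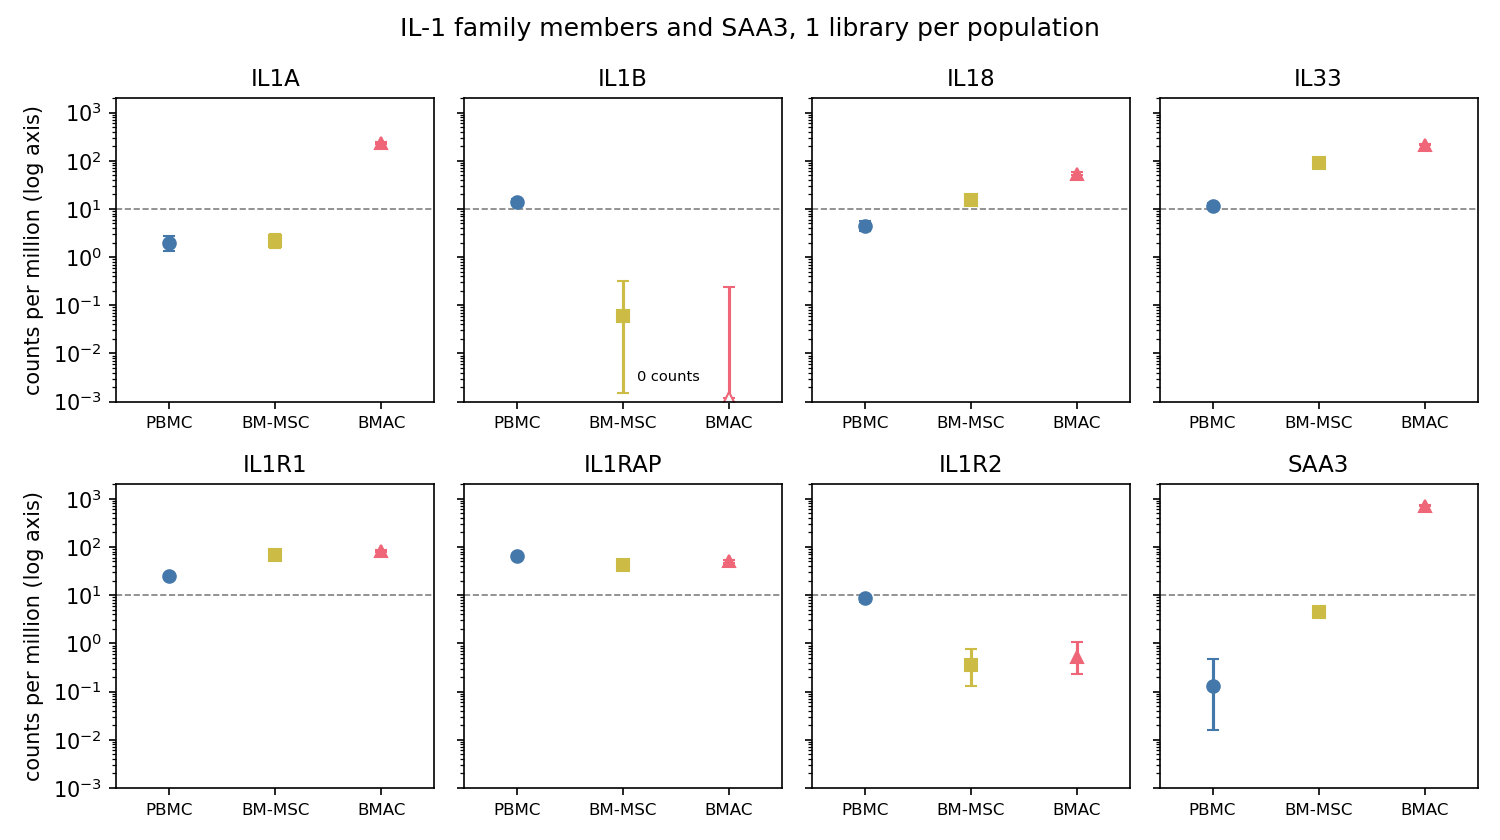
Levels in CPM (log axis) of the 8 genes in PBMC (circles), BM-MSC (squares) and BMAC (triangles), 1 library each. Bars are 95% Poisson intervals for counting error, the dashed line is 10 CPM, and the open symbol at the lower edge is IL1B with 0 counts in BMAC. SAA3 reached 718 CPM and IL1A 234.6 CPM in BMAC, while IL1RAP stayed between 42.9 and 63.8 CPM.

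IL18 and IL33, the other ligands, had the same order, with PBMC lowest and BMAC highest. IL18 held 69 counts in PBMC (4.47 CPM, 3.48 to 5.65), 265 in BM-MSC (15.5 CPM, 13.7 to 17.5) and 811 in BMAC (53.6 CPM, 49.9992 to 57.4). No intervals overlapped. BMAC stood 12.005-fold (9.38 to 15.6) above PBMC and 3.45-fold (3.003 to 3.98) above BM-MSC, and BM-MSC 3.48-fold (2.66 to 4.60) above PBMC. IL33 held 181 counts in PBMC (11.7 CPM, 10.1 to 13.6), 1528 in BM-MSC (89.5 CPM, 85.1 to 94.1) and 3260 in BMAC (215.6 CPM, 208.2 to 223.1). Both marrow libraries were thus well above blood, by 7.64-fold (6.54 to 8.96) in BM-MSC and 18.4-fold (15.8 to 21.5) in BMAC. BMAC exceeded BM-MSC by 2.41-fold (2.27 to 2.56).

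IL18BP, a secreted protein that binds and blocks IL-18, varied less than its ligand. It stood at 26.0 CPM in PBMC against 33.0 in BM-MSC and 38.8 in BMAC, and it overlaps the rows NUMA1 and RNF121, so that its value is uncertain. The count ratio of IL18 to IL18BP was 0.172 (0.131 to 0.223) in PBMC, 0.470 (0.405 to 0.545) in BM-MSC and 1.38 (1.24 to 1.54) in BMAC. IL1RL1, which encodes the IL-33 receptor ST2, was below 10 CPM in every library, at 4.21, 0.586 and 3.17 CPM in PBMC, BM-MSC and BMAC. IL1RN, which encodes the receptor antagonist, the IL-36 ligand genes and IL37 were not analysed here.

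IL1R1, the signalling receptor, was higher in the marrow populations, but by less than the size rule asks. It held 386 counts in PBMC (24.99 CPM, 22.6 to 27.6), 1142 in BM-MSC (66.9 CPM, 63.1 to 70.9) and 1230 in BMAC (81.3 CPM, 76.9 to 86.0). The marrow libraries lay close together, at 2.68-fold (2.38 to 3.01) and 3.25-fold (2.90 to 3.66) the level in PBMC, and BMAC was 1.22-fold (1.12 to 1.32) above BM-MSC. IL1RAP, the accessory chain, varied least of the 8 genes. It held 986 counts in PBMC (63.8 CPM, 59.9 to 67.9), 732 in BM-MSC (42.9 CPM, 39.8 to 46.1) and 764 in BMAC (50.5 CPM, 47.0 to 54.2). PBMC was the highest library, 1.49-fold (1.35 to 1.64) above BM-MSC and 1.26-fold (1.15 to 1.39) above BMAC. With TMM scaling these log2 ratios of -0.56 and -0.33 shrank to -0.24 and -0.06.

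IL1R2, the decoy receptor, was found mainly in blood. It held 133 counts in PBMC (8.61 CPM, 7.21 to 10.2), 6 in BM-MSC (0.352 CPM, 0.129 to 0.765) and 8 in BMAC (0.529 CPM, 0.228 to 1.04). PBMC was 24.5-fold (10.96 to 67.9) above BM-MSC and 16.3-fold (8.03 to 38.5) above BMAC, and the marrow libraries overlapped. IL1R2 stayed under 10 CPM and so was not measured under the size rule. The count ratio of IL1R1 to IL1R2 was 2.90 (2.38 to 3.56) in PBMC, 190.3 (87.2 to 519.7) in BM-MSC and 153.8 (77.8 to 356.9) in BMAC.

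IL1R1 and IL1R2 belong to a run of neighbouring receptor genes that RefSeq lists in the order IL18RAP, IL18R1, IL1RL1, IL1RL2, IL1R1 and IL1R2. IL1R1 was the only gene of the 6 with a higher level in both marrow libraries than in PBMC. IL18R1, the binding chain of the IL-18 receptor, stood at 88.4 CPM in PBMC against 0.410 in BM-MSC and 9.52 in BMAC. IL18RAP, its signalling partner, stood at 6.47, 0.293 and 1.19 CPM, and IL1RL2, the IL-36 receptor, at 2.33, 0.117 and 0.132 CPM. For IL1RL1 the difference between PBMC and BMAC was within counting error (1.33-fold, 0.899 to 1.97).

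SAA3 had the widest range of the 8 genes. It held 2 counts in PBMC (0.129 CPM, 0.0157 to 0.468), 76 in BM-MSC (4.45 CPM, 3.51 to 5.57) and 10860 in BMAC (718 CPM, 704.7 to 731.7). No intervals overlapped, and only BMAC exceeded 10 CPM. The level in BMAC was 161-fold (129 to 205) that in BM-MSC and 5546-fold (1535 to 45800.4) that in PBMC, the latter resting on 2 counts. By log2 ratio SAA3 was number 14 of 11371 measured genes towards BMAC against PBMC, and number 5 of 10303 towards BMAC in BM-MSC against BMAC. IL1A was number 140 and number 9 in the same orders.

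SAA2, another serum amyloid row, held 3, 1 and 62 counts in PBMC, BM-MSC and BMAC, and SAA4 held 33, 10 and 21. Like SAA3, SAA2 was highest in BMAC, 21.1-fold (6.90 to 105) above PBMC and 70.0-fold (12.1 to 2808) above BM-MSC, the latter resting on 1 count, and it stayed under 10 CPM. Serum amyloid genes resemble each other, so reads may have been shared between these rows. SAA3 lies between the coding genes LOC102165880 and SAAL1, and no overlapping row with at least 25% of its count was found.

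**Figure D2:**
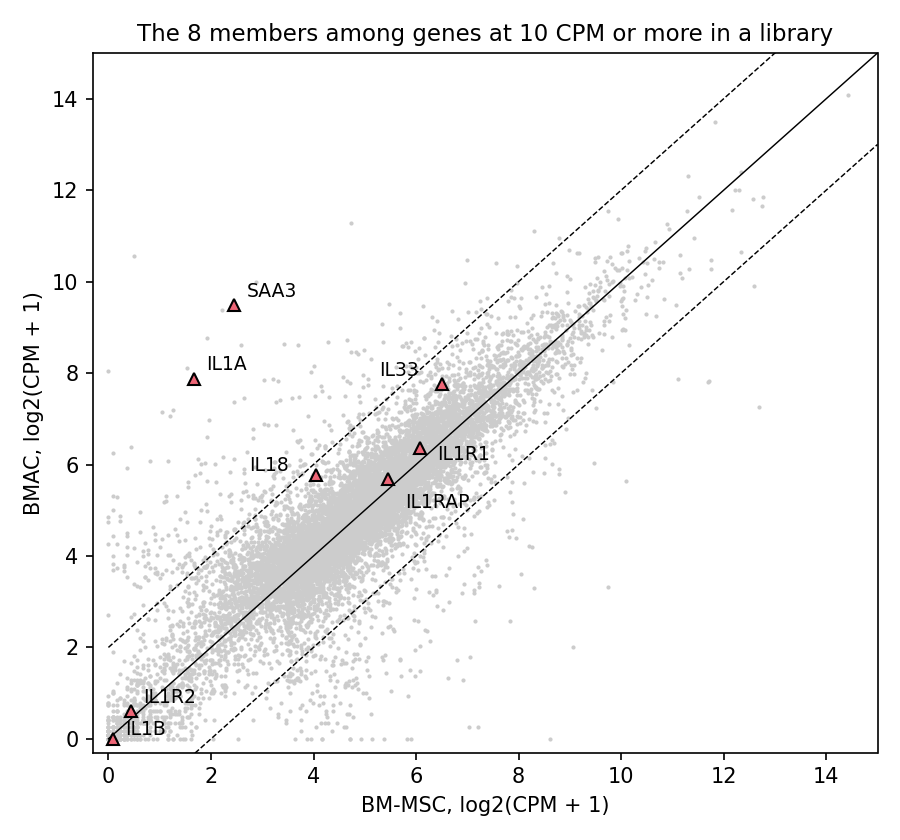
Levels in BMAC against BM-MSC, as log2(CPM + 1), for the 8 genes (triangles) and for all genes with at least 10 CPM in a library (grey points). The solid line marks equal levels and the dashed lines a log2 difference of 2. SAA3 and IL1A lie above the upper dashed line, and IL18, IL33, IL1R1 and IL1RAP lie between the lines.

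Under the size rule, 5 of the 8 genes were measured in BM-MSC against PBMC. IL33 was higher and IL1B lower in BM-MSC, where 14.3% of 11428 measured genes were higher and 15.7% lower, or 30.0% in either direction. The IL1B call was lost with a pseudocount of 5 CPM or a floor of 50 CPM, here and in BMAC against PBMC. With TMM or median-of-ratios scaling the share of such genes that were higher in BM-MSC went from 47.6% to 58.5% or 59.5%. In BMAC against PBMC 7 were measured. IL1A, IL18, IL33 and SAA3 were higher and IL1B was lower in BMAC, beside 14.0% higher and 12.8% lower of 11371 genes (26.8% in all). In BM-MSC against BMAC 6 were measured. IL1A and SAA3 were lower in BM-MSC and 0 members were higher, beside 3.21% and 2.90% of 10303 genes (6.11% in all).

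The members' shares cannot be read as a result, since the genes were chosen from these values and IL1B, IL1A and SAA3 reached 10 CPM in 1 library alone, which favours a call. IL1R1, IL1RAP and IL33 reached it in all 3. The members nearest the rule in BM-MSC against PBMC were IL33 with a log2 ratio of 2.83 inside it and IL18 with 1.60 outside. In BMAC against PBMC they were IL18 with 3.32 and IL1R1 with 1.66, and in BM-MSC against BMAC IL1A with -6.22 and IL18 with -1.72. The 3 comparisons share libraries and are not independent of each other.

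**Figure D3:**
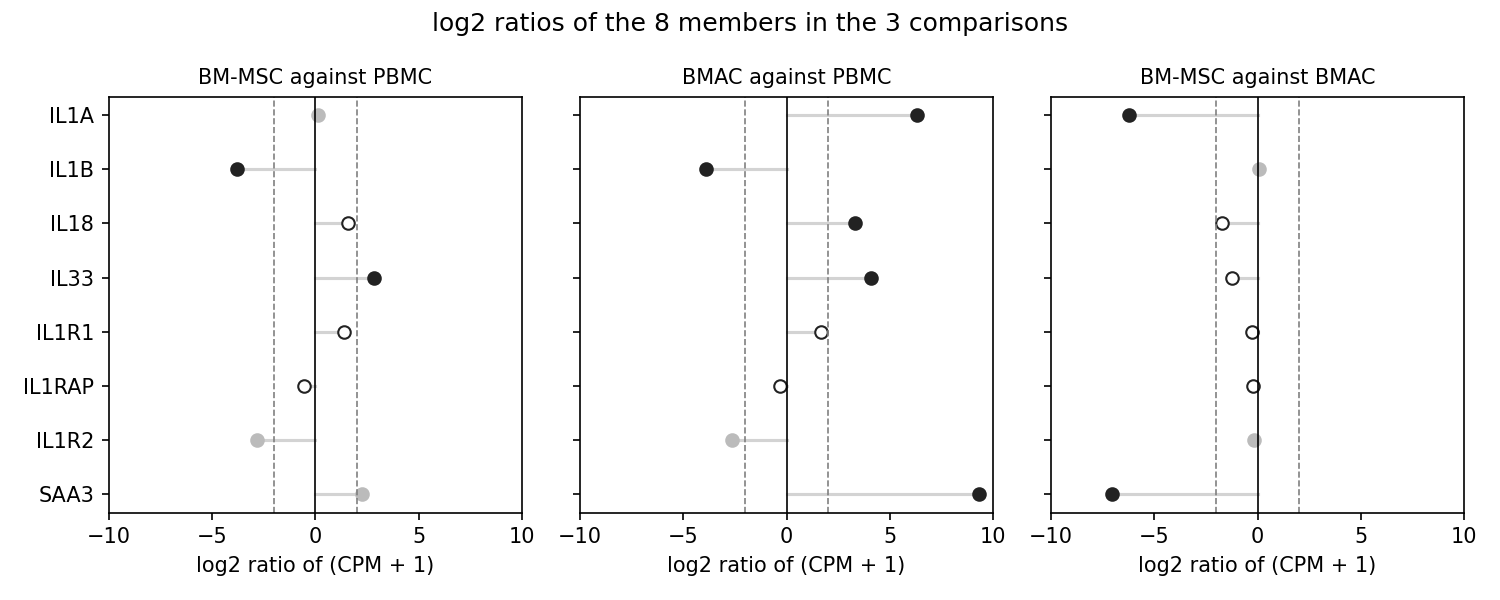
log2 ratios of (CPM + 1) for the 8 genes in the 3 comparisons, with positive values where the first-named population is higher. Filled black points passed the size rule (dashed lines at -2 and 2, and 10 CPM in the higher library), open points did not, and grey points were under 10 CPM in both libraries. IL33 passed against PBMC in both marrow populations, and SAA3 had the largest ratios, 9.31 and -7.04.

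Inflammasome genes, which serve the cutting of IL-1 beta and IL-18, did not all have the same direction. Of 8 genes with a row, 6 were measured against PBMC. Of these, 5 were higher in PBMC than in BM-MSC and 4 were higher than in BMAC. CASP1 and NLRP1 were lower in BM-MSC, with 0 higher (median log2 ratio -1.85, all genes -0.16, with 15.7% of all measured genes lower), and likewise in BMAC (median -1.61, or -1.72 without pseudocount and with 0 taken as 3 counts, all genes -0.12, with 12.8% lower). CASP1, which encodes caspase-1, held 187 counts in PBMC (12.1 CPM), 16 in BM-MSC (0.937 CPM) and 0 in BMAC, so PBMC was 12.9-fold (7.75 to 23.1) above BM-MSC and at least 61.0-fold above BMAC. NLRP1, a sensor, stood at 14.5 CPM in PBMC against 0.996 in BM-MSC and 0.198 in BMAC. CASP1, NLRP1 and MEFV were measured through PBMC alone, which favours a higher value in PBMC, and GSDMD through the marrow libraries alone. GSDMD was 2.38-fold (1.89 to 3.03) higher in BM-MSC and 1.81-fold (1.41 to 2.33) higher in BMAC than in PBMC. NLRC4, under 10 CPM in every library, stood at 1.42, 6.33 and 6.74 CPM in PBMC, BM-MSC and BMAC. It overlaps SLC30A6 and TRNAE-CUC. The median of all genes was also below 0, so the counts of direction are a description only. With a pseudocount of 5 CPM neither CASP1 nor NLRP1 passed the rule.

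NLRP3, another sensor, differed least, at 33.1 CPM in PBMC against 26.5 in BM-MSC and 41.2 in BMAC, and its ratio of BM-MSC to PBMC turned positive with TMM and median-of-ratios scaling. NEK7, a partner of NLRP3, was 3.99-fold (3.78 to 4.22) and 2.91-fold (2.76 to 3.06) higher in PBMC than in BM-MSC and BMAC, short of the rule. MEFV, which overlaps ZNF263, was 3.87-fold (2.94 to 5.14) and 3.76-fold (2.83 to 5.05) higher. The difference between BM-MSC and BMAC passed the rule for 0 of 3 measured genes (median -0.45, all genes -0.09). Only 6.11% of all measured genes passed there, so this count is no result about these genes.

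Of 7 other receptor genes of the family, 4 were measured against PBMC. IL18R1 and SIGIRR were lower in BM-MSC (median -2.53, all genes -0.16) and in BMAC (median -2.09, all genes -0.12), with 0 higher. Of all measured genes 15.7% and 12.8% were lower in these comparisons. Of these 4, 0 reached 10 CPM in BM-MSC and 1 in BMAC. IL18R1 was 215-fold (104 to 537) higher in PBMC than in BM-MSC and 9.28-fold (7.81 to 11.1) higher than in BMAC. SIGIRR, an inhibitory receptor, was 31.4-fold (16.3 to 69.5) and 12.5-fold (7.95 to 20.9) higher in PBMC, and did not pass with a pseudocount of 5 CPM. IL1RAPL1 and IL1RAPL2, relatives of IL1RAP known from neurons, were between 2.21-fold and 3.16-fold higher in PBMC, short of the rule. In BM-MSC against BMAC only IL1RAPL1 was measured, with a log2 ratio of -0.39 (median of all genes -0.09). It did not pass the rule, which 6.11% of all measured genes passed. IL18R1, just under 10 CPM, was lower in BM-MSC under the rule with TMM and median-of-ratios scaling.

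Of 14 measured signalling genes between the receptor and NF-kB, IRAK2, TAB3, IKBKB and PELI1 were lower in BM-MSC than in PBMC (median -1.43, all genes -0.16, with 15.7% lower). Of the 14, 5 reached 10 CPM in PBMC but not in BM-MSC. IRAK2, a receptor-associated kinase, was 14.3-fold (12.1 to 17.1), PELI1, a ubiquitin ligase, 10.8-fold (9.68 to 12.02), TAB3, an adaptor of the kinase MAP3K7, 9.01-fold (7.40 to 11.1) and IKBKB, an IkB kinase, 6.15-fold (5.53 to 6.86) lower. IRAK2, TAB3 and PELI1 were also lower in BMAC than in PBMC (median -0.53, all genes -0.12, with 12.8% lower), but IRAK2 and TAB3 were short of the rule with TMM and median-of-ratios scaling. MAP3K7 itself differed least, at 29.4, 31.9 and 25.3 CPM in PBMC, BM-MSC and BMAC, with a ratio of BMAC to PBMC that changed sign with those scalings.

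IRAK3, an inhibitory member of the IRAK family, and PELI2 were the 2 of 14 signalling genes that passed between the marrow populations (median -0.60, all genes -0.09), where 3.21% of all measured genes were lower in BM-MSC. They are named because they passed, outside the naming rule, and IRAK3 was below 10 CPM in BM-MSC and short of the rule with a pseudocount of 5 CPM. IRAK3 was 5.44-fold (4.52 to 6.60) and PELI2 4.94-fold (4.61 to 5.30) higher in BMAC than in BM-MSC. MYD88, the adaptor that the receptors need, held 0, 0 and 1 counts in PBMC, BM-MSC and BMAC, and TOLLIP held 0, 12 and 0. MYD88 overlaps the row ACAA1. Both MYD88 and TOLLIP are known as broadly expressed, so a value near 0 in these rows need not mean absence of the transcript. The rows of IL1B and CASP1 held 216 and 187 counts in PBMC and 0 in BMAC. Whether those 0 counts mean absence of the transcripts was not tested.

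**Figure D4:**
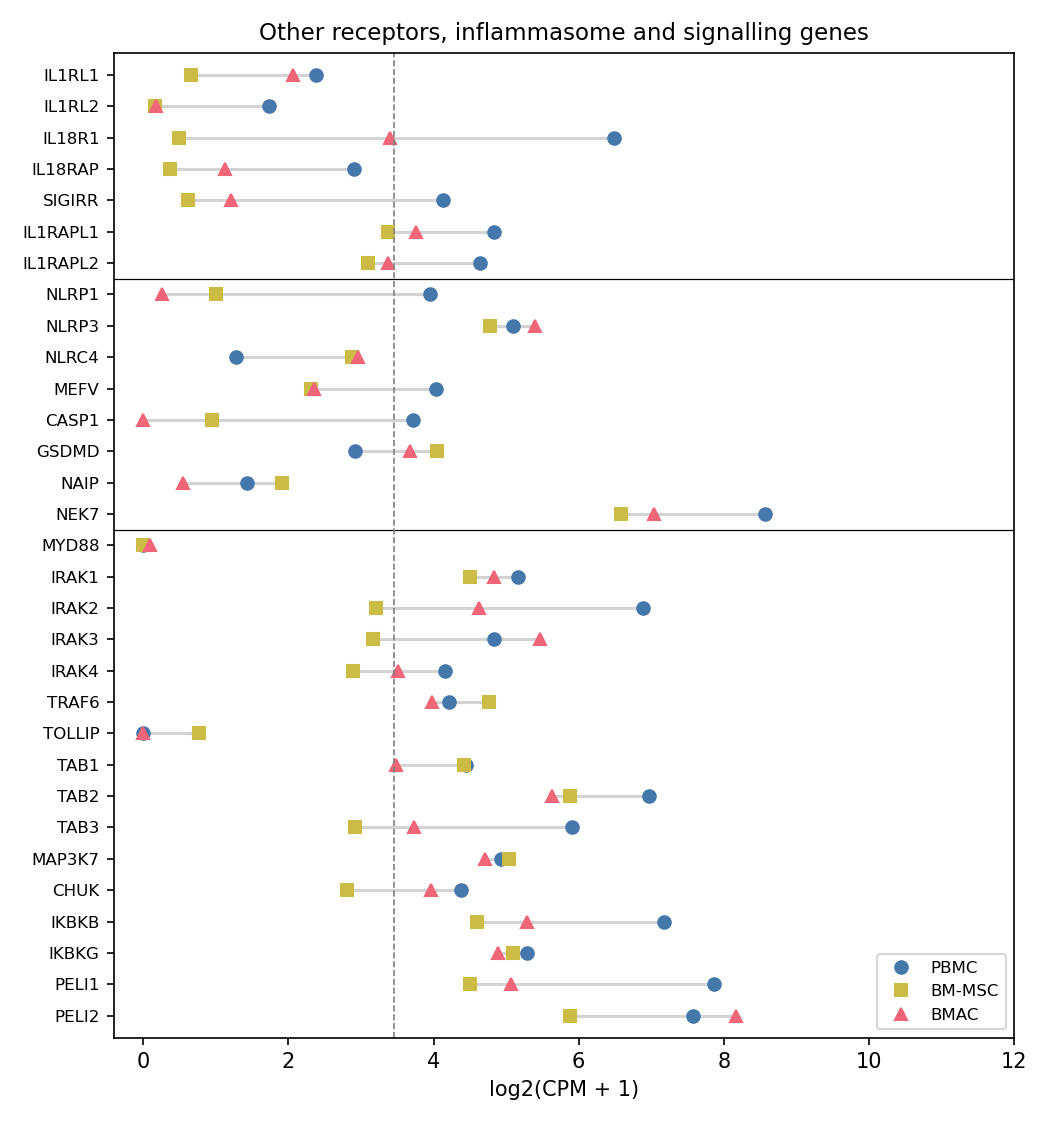
Levels, as log2(CPM + 1), of other IL-1 receptor family genes (top block), inflammasome genes (middle block) and signalling genes (bottom block) in the 3 libraries. The dashed line is 10 CPM and grey bars join the lowest and highest library. CASP1 and IL18R1 have their highest point in PBMC, at 12.1 and 88.4 CPM.

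Genes known to be induced by IL-1 summed to 933 CPM in PBMC against 929.8 in BM-MSC and 3867 in BMAC. Of 27 listed, 21 were measured in BMAC against PBMC, of which 14 were higher in BMAC and 0 lower (median 3.46, or 3.65 without pseudocount and with 0 taken as 3 counts, all genes -0.12), beside 14.0% higher and 12.8% lower of all measured genes. In BM-MSC against PBMC 8 of 18 were higher and 2 lower (median 1.20, or 1.39 without pseudocount and with 0 taken as 3 counts, all genes -0.16), beside 14.3% and 15.7%. In BM-MSC against BMAC 12 of 22 were lower in BM-MSC and 1 was higher (median -2.37, all genes -0.09), beside 3.21% and 2.90%. Within the libraries compared, 13 of the 21 reached 10 CPM through BMAC alone and 10 of the 18 through BM-MSC alone. Of the 22, 6 did so through BMAC alone. Such genes favour calls in that direction. The list overlaps genes whose pattern in these libraries was already known, so it is no independent evidence.

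IL6, a cytokine that drives the acute-phase response, stood at 0.0647 CPM from 1 count in PBMC, with 18.6 for BM-MSC and 409 CPM for BMAC. BMAC was 22.0-fold (19.7 to 24.7) above BM-MSC. PTGES, the prostaglandin E synthase, stood at 0.259, 52.8 and 385 CPM in PBMC, BM-MSC and BMAC, and IER3, an immediate-early gene, at 1.42, 153.9 and 673 CPM. These genes passed the rule in all 3 comparisons. CCL2, a chemokine for monocytes, had 0 counts in PBMC, against 154 CPM for BM-MSC and 358 for BMAC, and the marrow populations differed by 2.32-fold (2.21 to 2.43), short of the rule.

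NFKBIZ, an NF-kB regulator, differed least among the targets, at 60.0 CPM in PBMC against 82.2 in BM-MSC and 84.6 in BMAC, with the order of the marrow populations turned around by TMM and median-of-ratios scaling. In BM-MSC against PBMC 6 of the 18 targets had a ratio below 0, and 3 of the 21 in BMAC against PBMC. Those that passed the rule in this direction are named for it, outside the naming rule. TNFAIP3, a feedback inhibitor of NF-kB, and NFKB1, a subunit of NF-kB, were lower in BM-MSC than in PBMC by 102-fold (76.5 to 138) and 5.35-fold (4.99 to 5.74). In BMAC they were 2.97-fold (2.80 to 3.15) and 2.44-fold (2.31 to 2.57) lower than in PBMC, short of the rule. TNFAIP6, a secreted hyaluronan-binding protein, was 10.9-fold (7.66 to 16.1) higher in BM-MSC than in BMAC, and is also named for its direction.

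**Figure D5:**
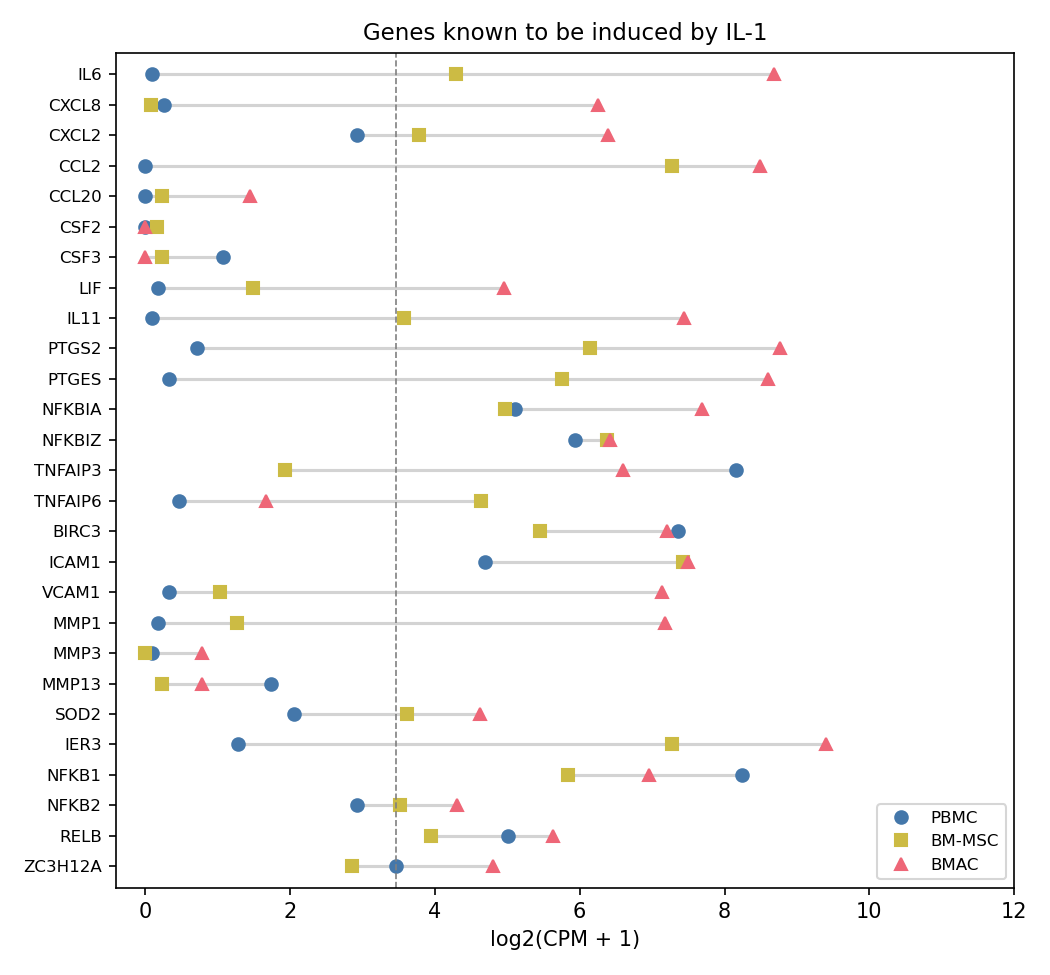
Levels, as log2(CPM + 1), of 27 genes known to be induced by IL-1 in PBMC (circles), BM-MSC (squares) and BMAC (triangles). The dashed line is 10 CPM and grey bars join the lowest and highest library. IL6 runs from 0.0647 CPM in PBMC to 409 CPM in BMAC.

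Of 21 other acute-phase genes with a row, 3 were measured in BMAC against PBMC and 5 in each of the other comparisons. CEBPD, a transcription factor of the acute-phase response, was the only one of these that passed in BMAC against PBMC, 4.50-fold (4.25 to 4.77) higher in BMAC (median of the 3 -0.70, all genes -0.12, with 14.0% higher). It stood at 92.3, 226 and 416 CPM in PBMC, BM-MSC and BMAC, the same order as SAA3. PTX3, a pentraxin made by stromal cells that overlaps VEPH1, was the only one that passed in BM-MSC against PBMC (median 1.28, or 1.29 without pseudocount and with 0 taken as 3 counts, all genes -0.16, with 14.3% higher). It had 0 counts in PBMC, against 21.9 CPM for BM-MSC and 0.727 for BMAC. A2M, a protease inhibitor, was 18.1-fold (10.2 to 35.5) and PTX3 30.1-fold (16.6 to 60.9) higher in BM-MSC than in BMAC, opposite to SAA3, and they were the 2 of 5 that passed there (median -0.52, all genes -0.09, with 2.90% higher).

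Both PTX3 and A2M reached 10 CPM in BM-MSC alone, which favours calls towards BM-MSC. A2M stood at 5.18, 14.4 and 0.793 CPM in PBMC, BM-MSC and BMAC, and did not pass with a pseudocount of 5 CPM. STAT3, which carries the IL-6 signal, was 3.56-fold (3.24 to 3.91) and 2.42-fold (2.23 to 2.64) higher in PBMC than in BM-MSC and BMAC, short of the rule, and CP, which overlaps HPS3, differed least at 33.1, 13.7 and 20.0 CPM. CEBPB held 0, 2 and 0 counts in PBMC, BM-MSC and BMAC and is subject to the same limit as MYD88.

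The genes with the most similar levels were found for each member that reached 10 CPM, by Euclidean distance in log2(CPM + 1) over the 3 libraries among 10455 named genes. For SAA3 they were TRH (distance 0.31), AMCF-II (0.66) and LVRN (1.80), with 661, 1023 and 276 CPM in BMAC. TRH encodes thyrotropin-releasing hormone and AMCF-II a pig CXC chemokine. For IL1A they were LVRN (0.73), STAC (0.98) and VCAM1 (1.56), at 276, 435 and 140 CPM in BMAC.

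For IL1B the nearest genes were VPREB3 (0.08), a B cell gene, EOMES (0.10), a transcription factor of T and NK cells, and DUSP2 (0.11), a phosphatase. For IL18 they were SHC3 (0.27, overlapping LOC110256887), TTN (0.35) and KCTD7 (0.45), and for IL33 MPDZ (0.39), IGF2BP2 (0.39) and FSCN1 (0.41), the last an actin-bundling protein. For IL1R1 they were DDOST (0.09), CYFIP1 (0.15, overlapping TRNAE-UUC) and CISD1 (0.15). For IL1RAP they were SNRNP200 (0.11), DNAJB12 (0.12) and COG1 (0.12, overlapping FAM104A and SLC39A11).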

How the data were processed

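The deposited values are raw counts per gene symbol, as whole numbers and unequal totals show, from QuantSeq libraries made from 500 ng of total RNA, per the labels' protocols. The submitters' processing notes list Bowtie2 and bedtools. For both, version and role are not stated, and build, annotation, strand use and handling of reads with several matches were not given in the sources used here. Rows of the same symbol were summed (81 symbols). The members and gene lists were chosen with earlier results of these data known.

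Counts were scaled to the library total. No test between populations was possible with 1 library each. The size rule asked for a log2 ratio of at least 2 with a pseudocount of 1 CPM, and 10 CPM and 10 counts in the higher library. Folds against 0 counts used 3 counts. On simulated counts with counting error only, the rule and intervals were checked. Variation between replicates and changes in genes with low counts were not covered. Neighbours and overlaps come from RefSeq's Sscrofa11.1 table, which lists all 8 members. A row overlapping one with at least 25% of its count is named with it. For 15 listed genes no row was used here. Alternatives were TMM (edgeR 4.0.16), median-of-ratios factors (DESeq2 1.42.0), other totals, pseudocounts, floors and fold limits. Named genes were all members, per list up to 4 with the largest ratio in any comparison and the one with the smallest, and the 3 most similar genes per member. Python 3.11.15 with scipy 1.17.1 was used.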

Additional observations from a re-analysis of the deposited data

How the results depend on the processing

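The same members passed the rule under TMM, median-of-ratios factors, totals without ribosomal RNA and mitochondrial rows, a pseudocount of 0.5 CPM and the highest row of each symbol, in all 3 comparisons. In BM-MSC against PBMC the 2 members became 1 with a pseudocount of 5 CPM or a floor of 50 CPM (without IL1B) and 1 with an 8-fold rule (without IL33), 4 with a floor of 1 CPM or none (adding IL1R2 and SAA3), and 4 with a 2-fold rule (adding IL1R1 and IL18). In BM-MSC against BMAC the 2 became 4 with a 2-fold rule (adding IL18 and IL33). In BMAC against PBMC the 5 ranged from 4 to 6, with IL1B lost at a pseudocount of 5 CPM or a floor of 50 CPM. Over all genes the 3424, 3042 and 630 that passed in BM-MSC against PBMC, BMAC against PBMC and BM-MSC against BMAC became 1912, 1718 and 298 with a floor of 50 CPM, 6643, 5819 and 1985 with a 2-fold rule and 1917, 1876 and 274 with an 8-fold rule, and the last became 374 with a pseudocount of 5 CPM. Of 120 recomputed member ratios, 0 changed sign and 30 left the counting interval. No paired analysis was possible because each population has 1 library. Depth limits IL1B and SAA3 where they held 0 to 2 counts.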
